A study of Mus musculus with 4 samples.

Results

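The Ugt2 glucuronosyltransferase cluster is a run of genes on mouse chromosome 5 that was placed here in maps of chromatin at the nuclear lamina. Its members were the 9 genes listed by symbol (Ugt2a1, Ugt2a3, Ugt2b1, Ugt2b5, Ugt2b34, Ugt2b35, Ugt2b36, Ugt2b37 and Ugt2b38), and all 9 were found among the 22367 protein-coding genes of the annotation. DamID was carried out on primary hepatocytes of adult WT (Tm7sf2+/+) and Tm7sf2/NET47 KO (Tm7sf2-/-) mice on a C57BL/6 background, the KO lacking a transmembrane protein of the nuclear envelope and endoplasmic reticulum. Hepatocytes of each genotype were transduced with a lentivirus for Dam methylase fused to LaminB1 or for Dam alone, and each of the 4 resulting libraries held pooled DNA of several mice. The maps analysed are lists of lamina-associated domains (LADs) in either genotype, together with lists of differential regions (DRs), stretches of at least 10 kb where a LAD of 1 genotype met none of the other. With 1 library pair per genotype there are no replicates, so the values below carry no error between animals and no test. The lists hold no signal, read number or expression level, the study's methods give fewer usable reads for the KO than for the WT, and the position of a gene says nothing here about its RNA.

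UDP-glucuronosyltransferases sit in the membrane of the endoplasmic reticulum and transfer glucuronic acid from UDP-glucuronic acid to lipophilic compounds such as steroids, bile acids, bilirubin and drugs. The conjugates are more soluble in water and leave the cell through export pumps into bile or blood, and the liver is the main site of this reaction. The UGT2B enzymes and Ugt2a3 have separate genes, whereas Ugt2a1 and Ugt2a2 share their last exons, as the UGT1A enzymes do among themselves. Ugt2a1 is best known from the olfactory epithelium.

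In DamID, methylated DNA is cut at GATC, so the profile changes from fragment to fragment at such sites. All 12 WT borders and all 22 KO borders of the LADs that met the cluster lay in a GATC. The last border of each list is past the cluster's end. Over all chromosomes, 99.2% of 16214 WT and 99.6% of 32152 KO borders lay in a GATC. The following 40-base windows of the NCBIM37 assembly (mm9), plus strand, are centred on the borders of the 2 WT-only DRs that reached a member and of 1 LAD found only in the KO, with the GATC of the border in capitals.
KO LAD end in an intron of Ugt2b37 (chr5:87675626-87675665): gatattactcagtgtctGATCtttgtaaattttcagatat
KO LAD start upstream of Ugt2b37 (chr5:87690076-87690115): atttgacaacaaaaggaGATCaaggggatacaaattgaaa
WT LAD start in an intron of Ugt2a1 (chr5:87892696-87892735): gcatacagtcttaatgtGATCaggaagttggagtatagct
KO LAD start in an intron of Ugt2a1 (chr5:87911377-87911416): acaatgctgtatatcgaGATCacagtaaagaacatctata
KO-only LAD start between Ugt2b36 and Ugt2b5 (chr5:87537688-87537727): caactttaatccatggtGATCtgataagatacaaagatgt
KO-only LAD end between Ugt2b36 and Ugt2b5 (chr5:87548224-87548263): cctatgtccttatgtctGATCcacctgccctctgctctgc

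Ugt2b5, Ugt2b37 and Ugt2b38 were near copies of each other and yet took 3 different positions, so the 150 bases before their start sites are shown as well (NCBIM37, minus strand, written 5′ to 3′). The capitals mark the 62 bases that all 3 shared letter for letter.
Ugt2b5, in no LAD (chr5:87569366-87569515): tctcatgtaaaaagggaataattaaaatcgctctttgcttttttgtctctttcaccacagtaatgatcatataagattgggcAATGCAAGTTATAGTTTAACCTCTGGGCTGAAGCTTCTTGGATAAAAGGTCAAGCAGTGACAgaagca
Ugt2b37, in a WT LAD only (chr5:87683830-87683979): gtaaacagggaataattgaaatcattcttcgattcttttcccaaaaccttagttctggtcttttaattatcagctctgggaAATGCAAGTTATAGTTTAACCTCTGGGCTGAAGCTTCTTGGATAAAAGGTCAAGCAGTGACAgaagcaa
Ugt2b38, in a LAD of both genotypes (chr5:87853229-87853378): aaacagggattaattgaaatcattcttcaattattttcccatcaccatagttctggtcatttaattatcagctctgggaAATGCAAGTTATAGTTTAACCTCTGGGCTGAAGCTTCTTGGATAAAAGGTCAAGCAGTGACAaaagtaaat

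The cluster ran from base 87318792 to base 87919896 of chromosome 5 (601 kb), and 8 of the 9 members were on the minus strand, with Ugt2b35 alone on the plus strand. WT LADs covered 45.9% of its bases and KO LADs 37.8%, a difference of -8.12 percentage points (KO minus WT). LADs of both genotypes shared 31.4% of the cluster, 14.4% was in WT LADs only, 6.32% in KO LADs only and 47.8% in neither. The cover was therefore lower in the KO in sum, with stretches changed in both directions. Of the WT LAD bases of the cluster, 31.5% lay outside KO LADs, against 15.6% on chromosome 5 and 12.9% over all chromosomes. Of the KO LAD bases, 16.7% lay outside WT LADs, against 14.0% and 13.9%.

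**Figure D1:**
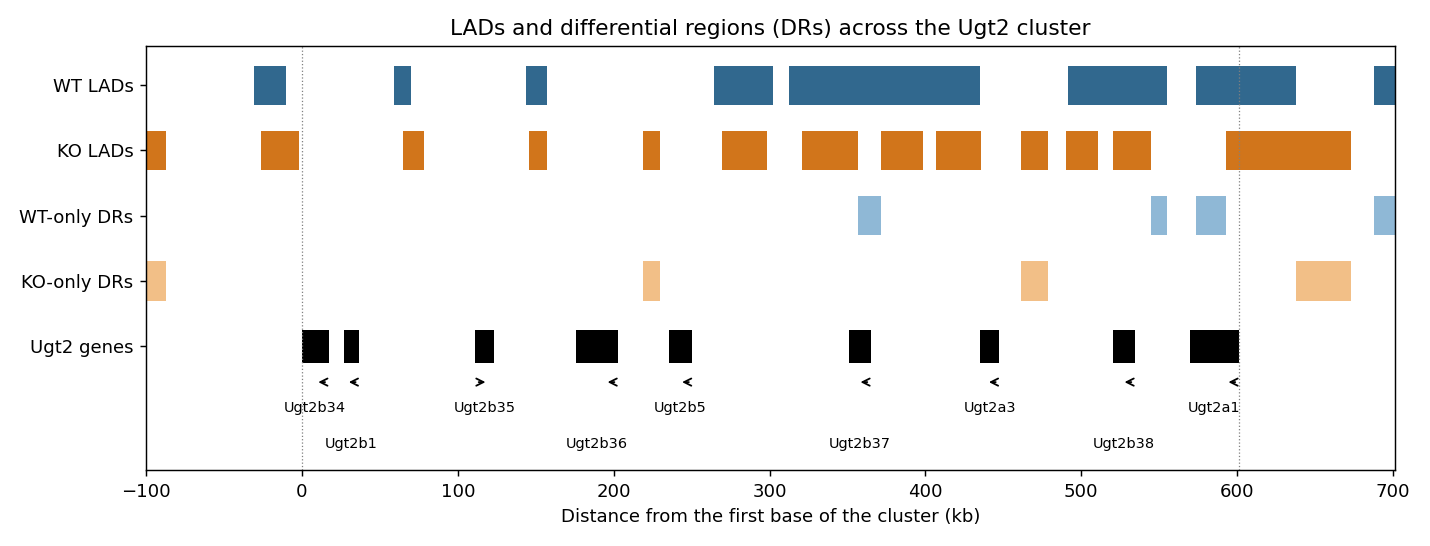
LADs of WT and KO, WT-only and KO-only DRs, and the spans of the 9 Ugt2 genes, against the distance in kb from the first base of the cluster; dotted lines mark the cluster's ends and arrows point in the direction of transcription from each start site. The 5 members on the left lie in gaps between LADs, and the 6 WT LADs of the cluster face 11 KO LADs.

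The KO LADs of the cluster were more numerous and shorter. There were 6 WT LADs with a median length of 50.7 kb (mean 52.1 kb) and 11 KO LADs with a median of 24.4 kb (mean 27.2 kb). The same direction was seen over all chromosomes, where the number went from 8107 LADs in WT to 16076 in KO and the mean length from 182 to 92.7 kb, with medians of 40.8 and 38.8 kb. The KO also had fewer usable reads than the WT, and the part of read depth in these numbers was not tested. In the cluster, the longest LAD was 123 kb in WT and 80.4 kb in KO. These lengths count whole LADs, also where they run past the cluster's end. The 80.4 kb KO LAD, at Ugt2a1, lay mostly beyond that end, and a WT LAD of 63.8 kb there ran past it too. The longest KO LAD wholly inside the cluster measured 35.9 kb. The 123 kb WT LAD (87631091 to 87753822), which held Ugt2b37 whole, was met by 3 shorter KO LADs, the first ending inside Ugt2b37 and the last just past the 3′ end of Ugt2a3.

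Read along the chromosome, the members fell into a LAD-poor and a LAD-rich run. This split was made after the values had been seen. The DNA between Ugt2b5, which ends at 87569365, and Ugt2b37, which begins at 87669518, belongs to neither run. It held a WT LAD of 37.8 kb, a KO LAD of 28.4 kb and part of the 123 kb WT LAD. From Ugt2b34 to Ugt2b5 (251 kb), 9.78% of bases were in WT LADs and 14.1% in KO LADs. From Ugt2b37 to Ugt2a1 (250 kb), the shares were 69.9% and 53.3%. In the lists as given, the difference between genotypes thus had opposite signs in the 2 runs, 4.36 percentage points in the first and -16.6 in the second (KO minus WT). The LADs of the first run measured 11.1 and 13.5 kb in WT and 13.7, 11.2 and 10.5 kb in KO. With LADs of at least 20 kb, that run held no LAD of either genotype. With LADs joined across gaps of up to 50 kb, the cover was larger in KO in both runs.

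Over the whole cluster the genes were less covered than the DNA between them, but this did not hold within the LAD-rich run in WT. Member spans made up 154 kb, of which 36.3% was in LADs in WT and 18.9% in KO. The 447 kb between members was covered to 49.2% and 44.2%. From Ugt2b34 to Ugt2b5, no base of a member was in a LAD, and the DNA between members was covered to 14.5% in WT and 21.0% in KO. From Ugt2b37 to Ugt2a1, the genes had the larger share in WT (77.2%, against 67.0% between them) and the smaller one in KO (40.3% and 58.6%). Over the cluster, the gap between genotypes was wider in the genes than between them. In the genes, 17.5% of bases were in WT LADs only and 0.109% in KO LADs only, and between them 13.4% and 8.45%. All WT-only bases of the genes lay in Ugt2b37 and Ugt2a1.

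The study sorts genes by whether they moved in the KO and names the classes PI, IP, PP and II, with AMB for ambiguous ones. They were applied here to whole gene spans with rules set for this comparison. A gene is called PI if at least 1 base of its span lies in a WT-only DR (from the periphery in WT to the interior in KO), and IP if it meets a KO-only DR. AMB meets both, PP meets a LAD of both lists and no DR, and II is the rest. Of the 9 members, 2 were PI (Ugt2b37 and Ugt2a1), where 5.43% of all protein-coding genes and 6.42% of those on chromosome 5 had that call. None was IP, against 17.1% of all genes and 16.6% on chromosome 5. Only Ugt2b38 was PP, where 17.9% of all genes and 11.6% on chromosome 5 were. The other 6 members were II (56.6% and 62.5%), and 0 were AMB (2.96% and 2.90%). In WT, 2 members lay wholly in LADs (all genes 19.8%), and in KO 1 (all genes 21.9%). With 9 genes in 1 stretch of DNA, neighbours can share a LAD, and no count here stands for 9 independent positions.

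The lower cover and the PI calls depended on how finely the LADs are divided. With LADs joined across gaps of up to 50 kb, the cluster was covered to 50.7% in WT and 67.7% in KO, which turned the difference to 17.0 percentage points, and both PI genes became PP. With DRs of at least 20 kb neither was PI, since the DRs at Ugt2b37 and Ugt2a1 measured 14.4 and 18.7 kb. The cover of the 801 kb that takes in 100 kb on each side was 43.2% in WT and 42.0% in KO.

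**Figure D2:**
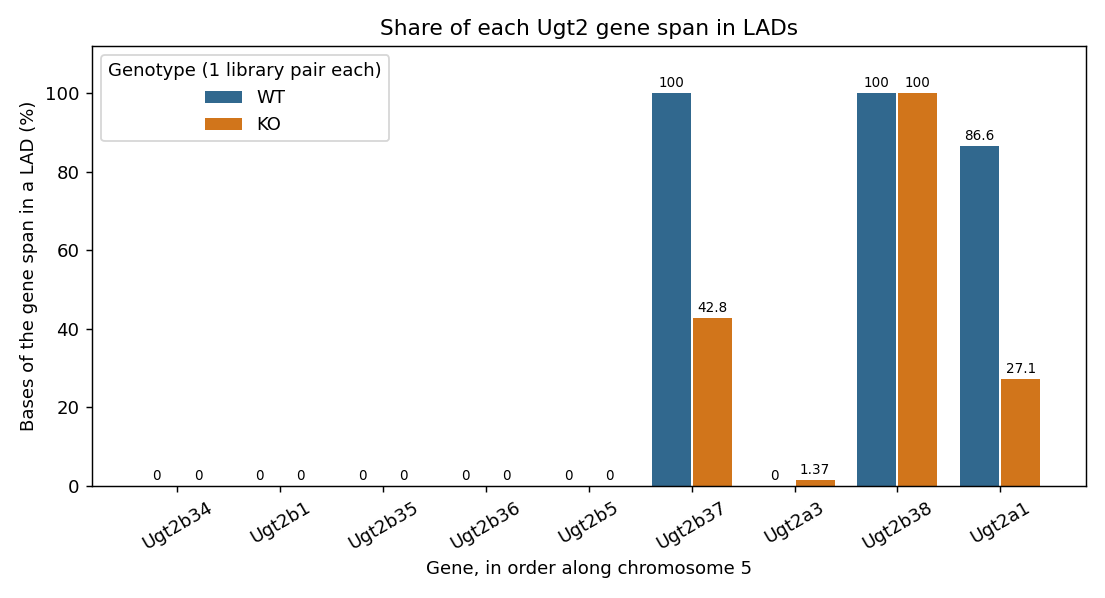
Percent of the bases of each gene span that lay in LADs of WT (blue) and KO (orange), 1 library pair per genotype, genes in their order along chromosome 5. The spans of Ugt2b37 and Ugt2a1 went from 100% and 86.6% in WT to 42.8% and 27.1% in KO, Ugt2b38 stayed at 100%, and the first 5 genes were at 0 in both.

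Ugt2b37 (chr5:87669518-87683829, minus strand, 14.3 kb) lay wholly in a LAD in WT and to 42.8% in KO. A WT-only DR of 14.4 kb (87675646 to 87690095) took in 57.2% of the gene, namely its start site, exons 1, 2 and 3 and the DNA upstream. Exons 4, 5 and 6 stayed in a LAD in both genotypes. The start site was inside a WT LAD and 6.27 kb from the nearest KO LAD. The change therefore split the gene, with its 5′ part in WT LADs only and its 3′ part in LADs of both. On the KO side, the DR is a gap of 14.4 kb between a LAD of 35.9 kb and one of 27.0 kb.

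Ugt2a1 (chr5:87888515-87919896, minus strand, 31.4 kb), at the far end of the cluster had 86.6% of its bases in LADs in WT and 27.1% in KO. The WT-only DR of 18.7 kb (87892716 to 87911396) lay wholly inside it and covered 59.5% of the gene. Of its 7 exons, 1 and 2 were in a LAD in both genotypes, 3 and 4 in WT only, and 5, 6 and 7 in neither. The order was thus the reverse of that of Ugt2b37, since here it was the 5′ end that stayed in a LAD.

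Ugt2a1 also had a second start site. The transcript Ugt2a1-003 began at 87919896, which was in a LAD of both genotypes. Ugt2a1-001 began at 87911283, inside the WT LAD and 114 bp short of the KO LAD, and Ugt2a1-002 began next to it at 87911285. The promoter that RefSeq (GRCm38.p6) gives for Ugt2a2, the gene that shares the last exons of Ugt2a1, matched NCBIM37 once and put its start at 87911283. The 2 start sites of this locus therefore differed in position in the KO, but the margin was below the average spacing of GATC sites, of which the cluster held 2.66 per kb.

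Ugt2b38 (chr5:87838967-87853228, minus strand, 14.3 kb) was the only member wholly in LADs of both genotypes. All 6 exons and the start site were in both. The KO LAD that held it (87838940 to 87863380, 24.4 kb) fitted more tightly around it. A 9.21 kb stretch of WT LAD (87829725 to 87838939), just below the 10 kb limit for a DR, ended at the gene's 3′ side. A WT-only DR of 10.3 kb (87863381 to 87873665), just above that limit, lay upstream of its start. So the gene stayed in a LAD while LAD was missing on either side of it in the KO. At its 3′ end, the margin to the KO LAD border was below the average spacing of GATC sites, of which the cluster held 2.66 per kb.

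Ugt2a3 (chr5:87753997-87766220, minus strand, 12.2 kb) sat at a LAD border that hardly moved. In WT a LAD ended at 87753822, 174 bp before its 3′ end, and in KO at 87754164, so that 1.37% of the gene and 1 of its 6 exons, the last, touched a KO LAD. This 342 bp stretch is far under the DR limit, and the call was II. Its start site was 12.4 kb from the nearest WT LAD and 12.1 kb from the nearest KO LAD. Upstream of it, a LAD of 17.7 kb (87779859 to 87797589) was found only in the KO, and cut the LAD-free DNA around Ugt2a3 from 56.2 kb in WT to 25.7 kb.

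The other 5 members, Ugt2b34, Ugt2b1, Ugt2b35, Ugt2b36 and Ugt2b5, had no base in a LAD of either genotype, as had 56.0% of all protein-coding genes. Each lay in a gap between LADs. In WT, Ugt2b34 and Ugt2b1 shared a gap of 69.6 kb, Ugt2b35 had one of 73.5 kb, and Ugt2b36 and Ugt2b5 shared one of 107 kb. The median gap between LADs of the same chromosome was 22.9 kb in WT and 19.1 kb in KO. The gaps around these members were longer, but they were picked for holding whole genes and so could not be short. Other gaps that hold a whole gene were not measured, so the medians cannot show whether these gaps were wide for the genome. In KO, the first gap measured 66.3 kb and the second 67.6 kb. The third was broken by the 10.5 kb KO-only LAD (87537708 to 87548243), which left Ugt2b36 in a gap of 61.8 kb and Ugt2b5 in one of 40.3 kb.

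Some of these gaps were closed in by LADs on both sides. Ugt2b34, Ugt2b1 and Ugt2b35 had no LAD in the gene and a LAD within 50 kb on both sides in both lists, a setting shared by 1.24% of all protein-coding genes. Ugt2b34 and Ugt2b1 lay in the same gap in each list, so they are not separate positions. The LADs on either side of Ugt2b35 measured 11.1 and 13.5 kb in WT and 13.7 and 11.2 kb in KO. With LADs of at least 20 kb, these are dropped and none of the named genes keeps the setting. In the WT list alone 4 members met it (all genes 4.28%), and in the KO list alone 5 (all genes 5.80%). Ugt2b34 came closest in the KO, where a LAD ended 1.64 kb from its 3′ end, against 10.4 kb in WT.

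**Figure D3:**
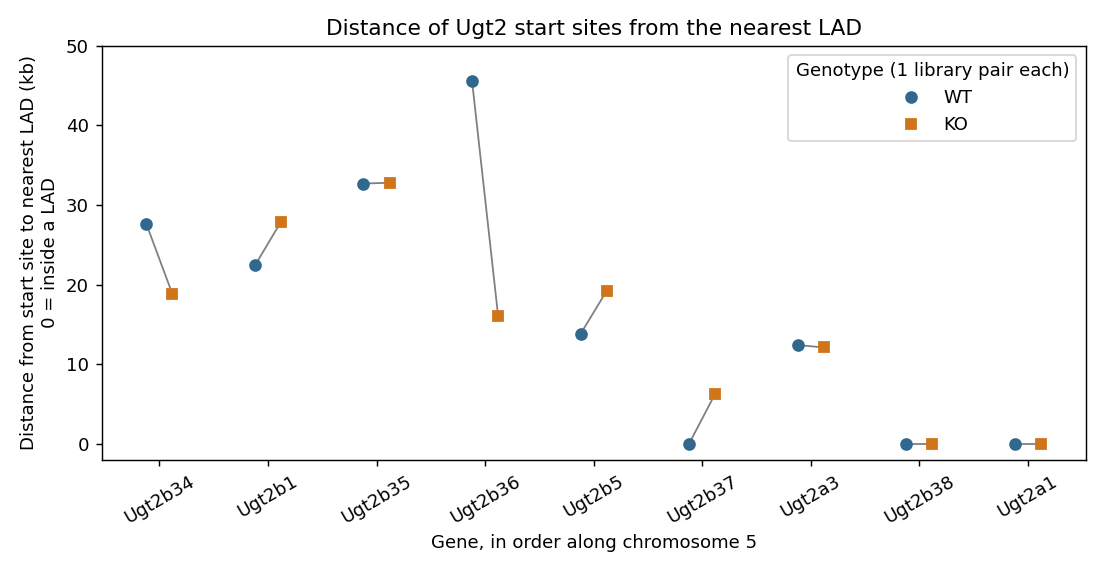
Distance in kb from each start site to the nearest LAD of WT (circles) and KO (squares), where 0 means inside a LAD. Each gene is shown by its outermost start site, so the inner starts of Ugt2a1 are not drawn. The largest difference is at Ugt2b36, 45.6 kb in WT and 16.1 kb in KO, and of the sites shown that of Ugt2b37 moves off 0.

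For each gene the outermost annotated start site is counted here. The start sites differed from the spans at Ugt2a1, which is PI by its span but had this start in a LAD of both genotypes. The inner starts of Ugt2a1, those of Ugt2a1-001 and Ugt2a1-002, were in a LAD of WT only and are not in these counts. In WT, 3 member start sites were in a LAD (Ugt2b37, Ugt2b38 and Ugt2a1; all genes 22.7%), and in KO 2 (Ugt2b38 and Ugt2a1; all genes 32.8%). The start site of Ugt2b37 was in a LAD of WT only, as were 2.62% of all start sites. No member had its start site in a LAD of KO only, where 12.7% of all genes did. Among the 5 LAD-free genes, the distance to the nearest LAD fell from 45.6 to 16.1 kb at Ugt2b36 and from 27.6 to 18.8 kb at Ugt2b34. It was 22.4 kb in WT and 27.9 kb in KO at Ugt2b1, 13.8 and 19.2 kb at Ugt2b5, and 32.7 and 32.8 kb at Ugt2b35.

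**Figure D4:**
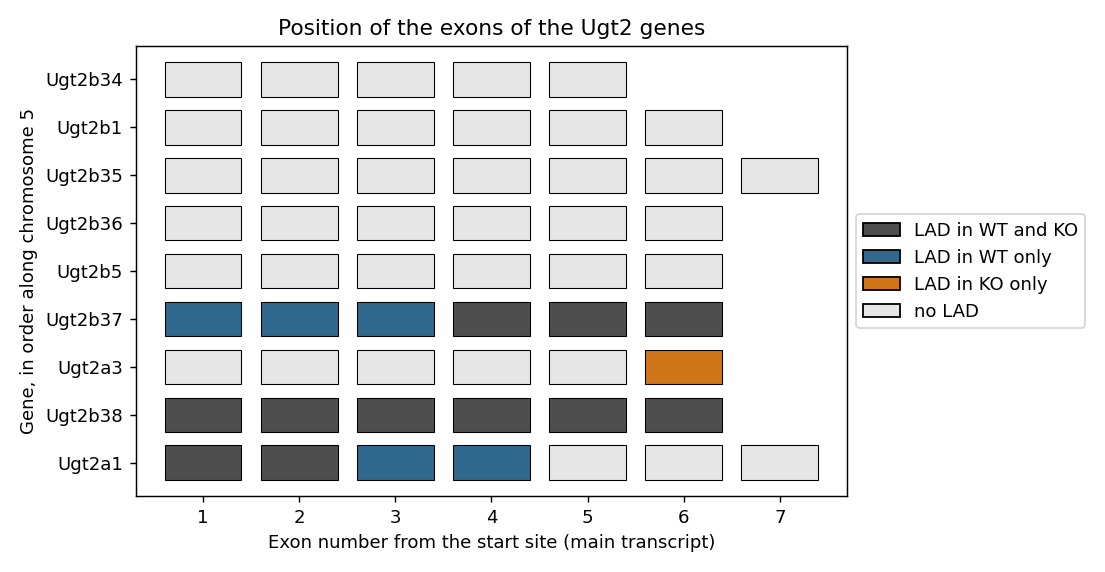
Each box is an exon of a member's main transcript, numbered from the start site, filled by whether it lay in a LAD of both genotypes, of WT only, of KO only or of neither. Of 55 exons, 11 were in both, 5 in WT only, 1 in KO only and 38 in neither, and the 5 WT-only exons were exons 1 to 3 of Ugt2b37 and 3 and 4 of Ugt2a1.

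In the 500 kb before the cluster, WT LADs covered 75.0% and KO LADs 79.8% of bases, and in the 500 kb after it 90.0% and 78.2%. The cluster was less covered than either of these 500 kb flanks in both genotypes. This did not hold for the 100 kb just before it, which were covered to 20.1% in WT and 37.6% in KO. In the 100 kb after it, KO LADs covered 71.9%, and 36.6% of bases were in LADs of both genotypes and 13.4% in those of WT only. Before it lie the Tmprss11 genes for membrane serine proteases, of which 4 of 5 were PP and Tmprss11f was IP, and Ythdc1, an m6A reader, which was II. After it come the cytosolic sulfotransferases, the other conjugating enzymes of this locus, and all 3 met a DR. Of all protein-coding genes, 5.43% were PI, 17.1% IP, 2.96% AMB and 17.9% PP. Sult1b1 and Sult1d1 met the same KO-only DR of 35.3 kb, so their calls are not separate events. Sult1b1, the gene next to Ugt2a1, was IP (57.0% of the gene in LADs in WT, 100% in KO) and so was Sult1d1 (0 and 56.7%), whereas Sult1e1, the estrogen sulfotransferase, was PI (90.2% and 0). A single WT LAD spanned most of Ugt2a1 and part of Sult1b1, and the KO LAD in its place covered less of the first gene and more of the second. The casein genes further on were PP, and Odam was PI (100% and 0).

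The glucuronidation list took in other transferases, the enzymes and carriers that supply or remove the sugar, export pumps and regulators. Of 25 genes found in the annotation, 0 were PI (all genes 5.43%), 3 were IP (17.1%), 12 were PP (17.9%) and 10 were II (56.6%). The 9 Ugt1a genes, whose models overlap, make up most of the PP genes. Outside them, 0 of 16 were PI, 3 IP, 3 PP (Ugt3a1, Ugt3a2 and Ugt8a) and 10 II, which is 0, 18.8%, 18.8% and 62.5% and near the shares of all genes. The IP genes were Ugp2, which makes UDP-glucose (0 in WT, 30.2% of the gene in KO), Abcg2, an efflux pump (50.1% and 100%), and Ahr, a xenobiotic receptor (0 and 53.4%).

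**Figure D5:**
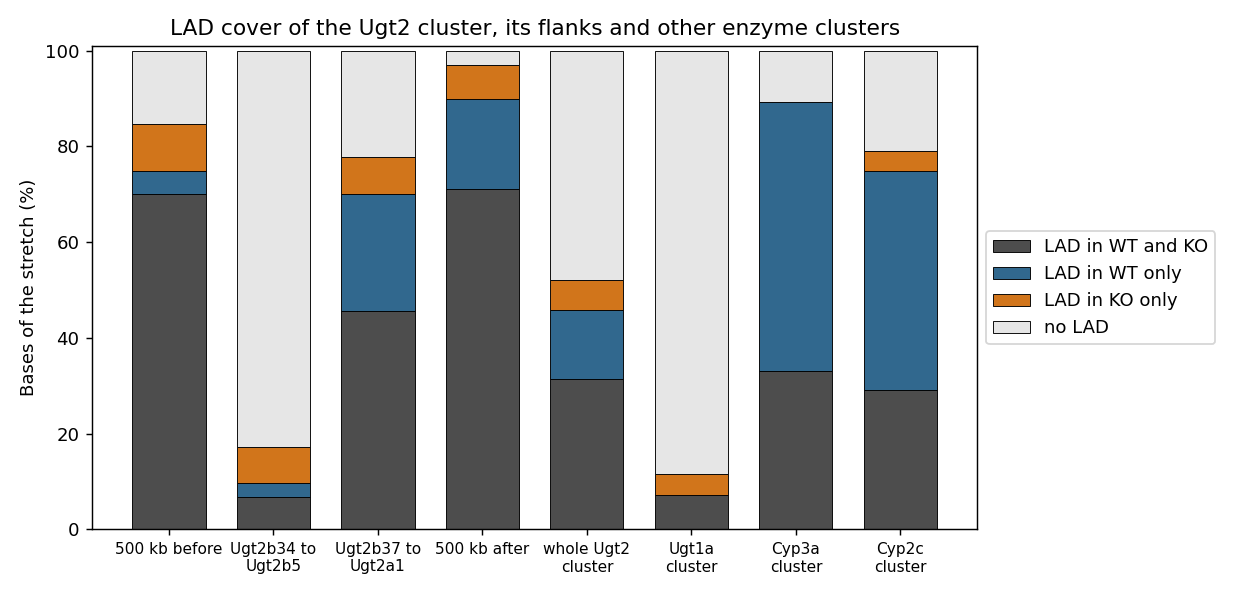
Percent of the bases of each stretch in LADs of both genotypes, of WT only, of KO only and of neither, each column adding to 100. Shown are the cluster, its runs and flanks, and other hepatic enzyme clusters. The runs leave out the DNA between Ugt2b5 and Ugt2b37. The Ugt2 cluster has 14.4% of its bases in WT LADs only, against 56.1% in the Cyp3a, 45.8% in the Cyp2c and 0 in the Ugt1a cluster.

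Set beside other enzyme clusters of the hepatocyte, the Ugt2 cluster had a share of WT-only bases between those of the Cyp clusters and of Ugt1a. In the Cyp3a cluster on chromosome 5 (819 kb), all 8 genes were PI and the cover was 89.2% in WT and 33.1% in KO. In the Cyp2c cluster on chromosome 19 (1180 kb), 12 of 14 genes were PI, with 74.9% and 33.2%. In the Ugt1a cluster on chromosome 1 (165 kb), all 9 genes were PP and the cover was 7.25% and 11.5%. These overlapping genes met the same LAD, 1 in each genotype, and only 1 of their 9 start sites was in a LAD in WT and 1 in KO. The share of WT LAD bases outside KO LADs was 31.5% in the Ugt2 cluster, 62.9% in Cyp3a, 61.1% in Cyp2c and 0 in Ugt1a. These are descriptions of 4 stretches, with no test between them.

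The genes most like a member in their shares of WT and KO LADs were sought among all 22367. For Ugt2b37 (100% and 42.8%), the nearest were Tdpoz1 on chromosome 3 (100% and 42.6%), Gpr115 on chromosome 17 (100% and 43.1%) and 1700027A23Rik on chromosome 3 (100% and 42.4%). For Ugt2a1 (86.6% and 27.1%), they were Hpse2 (87.6% and 27.9%) and Cyp2c39 (88.2% and 27.6%), both on chromosome 19, and Slc1a3 on chromosome 15 (86.2% and 25.1%). For Ugt2a3, near 0 in both, they were Shfm1, Fbxo25 and Zfp329, with KO shares of at most a few percent. The comparison rests on 2 shares per gene.

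Members close in sequence could differ in position. Over the 36 pairs, coding identity ran from 69.0% to 97.0%, with a median of 74.4%. Ugt2b5 and Ugt2b38 were 97.0% identical, Ugt2b5 and Ugt2b37 94.7%, and Ugt2b37 and Ugt2b38 94.1%. These closest relatives were II, PI and PP. In the 150 bases before the start site, the identity was 85.7%, 85.9% and 93.9% for the same pairs. Their shared run of 62 bases, printed above in capitals, was found in 3 of 32851 RefSeq promoters (0.00913%), those of the 3 genes themselves. Ugt2a1 and Ugt2a3 were closest to each other, at 75.0%, and were PI and II.

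The shared run holds 2 interrupted palindromes with arms of 4 bases that are 5 bases apart, GTTANNNNNTAAC and GTCANNNNNTGAC, in which N is any base. Each reads the same on both strands, the 2 do not overlap in the run, and both were chosen after the run had been seen. The first has the outer letters of the palindrome bound by HNF1, a transcription factor of hepatocytes. In the RefSeq promoters, from 250 bases before to 50 after a start, it was found in 7 of the 9 members and in 0.332% of all 32851 promoters. Ugt2b5, Ugt2b37 and Ugt2b38 had to hold it, since the run was taken from them, and the other members are their relatives. All 7 were Ugt2b genes, with the match beginning between 89 bases (Ugt2b1) and 61 bases (Ugt2b5) before the start. The 5 LAD-free Ugt2b genes held it, and so did Ugt2b37 and Ugt2b38, while its letters were not found in the windows of Ugt2a1 and Ugt2a3. The second was found in 4 members, Ugt2b5, Ugt2b36, Ugt2b37 and Ugt2b38, and in 0.390% of all promoters. Of these 4, only Ugt2b36 was not a source of the run. Such matches describe the DNA and not the binding of a factor.

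Sequence also bears on what DamID can read in this cluster. Its GC content was 37.5% (chromosome 5 42.5%), and 70.5% of its 31-base words occurred once in the genome, against 84.0% on chromosome 5. Among members, the unique share was lowest in Ugt2b38 at 74.0% and highest in Ugt2b1, followed by Ugt2a3 at 92.3%, with 79.9% in Ugt2b37, 83.2% in Ugt2a1 and 78.7% in Ugt2b5. The share differed with position: 56.8% in stretches in LADs of both genotypes, 70.1% in those of WT only, 74.0% in those of KO only and 79.2% in those of neither. Ugt2b37 had the lowest density of GATC sites of the members, 1.54 per kb against 2.66 in the cluster as a whole. The WT-only DR at Ugt2b37, which reaches upstream of the gene, had 2.56 per kb, and that at Ugt2a1 had 2.19. The assembly holds 0 undetermined bases here. The part of repeated sequence and of site spacing in the calls was not tested.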

How the data were processed

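The deposited lists give LAD and DR positions in bases, with no signal, score or read number, and were made by the authors from 1 LaminB1-Dam and 1 Dam library per genotype. Per the study's methods, reads were mapped to mm9, a log2 ratio of the fusion over Dam alone was taken for DpnI fragments, and LADs were called with DNAcopy. The submitters' processing notes name BWA and limma, with no version. Positions are printed 1-based on NCBIM37 (mm9), and genes are from GENCODE for that assembly. Regions past a chromosome end were found in 0 of the 4 lists. Subtracting the LAD lists and keeping at least 10 kb returned all 7787 WT-only and 8208 KO-only DRs with identical borders. The main transcript, whose exons are counted, is the coding one with most bases in exons. Interval steps were tested on simulated data. Python 3.11.15, numpy 2.4.6, Biopython 1.88 (global alignment of coding sequences) and matplotlib 3.10.9 were used. The 31-base words of chromosome 5 were read at 738599 evenly spaced positions. Genes named are the 9 members, the neighbours within 500 kb, a glucuronidation list and up to 3 genes most like each partly covered member. Cyp3a13 and Cyp2c44, over 500 kb from their relatives, were left out of the clusters. The members, lists and alternatives were chosen with earlier results of these data known.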

Additional observations from a re-analysis of the deposited data

How the results depend on the processing

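Counts and shares were recomputed under 12 other settings, and a value counted as unchanged within a factor of 1.5. Requiring 10% or 50% of the span in a DR, counting exons only, or keeping LADs of at least 20 kb left all 9 calls as they were. With the start base alone, 1 member was PI and 2 were PP, since Ugt2a1 turned PP. With 100 kb centred on each gene, 3 were IP, 1 AMB, 3 PP and 0 II. With LAD differences of any length, Ugt2a3 became the 1 IP member. With DRs of at least 20 kb, 0 were PI and 3 PP. With LADs joined across gaps of up to 50 kb, 0 were PI, 2 IP (Ugt2b5 and Ugt2a3) and 3 PP. The joined KO LADs held 57.0% of member bases, 5 start sites, 56.4% of exons and 67.7% of the cluster. The difference in cover (KO minus WT) then turned to 18.0 percentage points over member bases and 17.0 over the cluster. The share of WT LAD bases outside KO LADs fell to 2.52%, and that of KO LAD bases outside WT LADs rose to 27.0%. The cover difference of the cluster was -12.9 points with LADs of at least 20 kb and -1.18 with 100 kb added on each side. The share of KO LAD bases outside WT LADs was 0.938% and 28.2% under those settings. Merging all annotated exons and leaving out undetermined bases, of which there are none, moved no value past that factor. No paired analysis was possible because each genotype has 1 library pair. Without replicates, the precision of a border could not be measured. The study gives fewer usable reads for the KO than for the WT, and the part of this difference in the lists was not tested.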
